A study of Mus musculus with 15 samples.

Results

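Left ventricles of mice heterozygous for either of 2 missense alleles of Rbm20 were compared: the A-line HET group, labelled Rbm20 S637A +/-, and the G-line HET group, labelled Rbm20 S639G +/-. The members are the 6 libraries that carry these labels, 3 per allele, of 15 libraries in the series. All were total RNA of left ventricle from C57BL/6 mice aged 2 months, and no group of this comparison lacks an Rbm20 mutation. The other libraries, homozygotes of both lines (A-line HOM and G-line HOM) and WT, are used below as levels beside the 6. They also enter 1 alternative fit, that of the 13 distinct libraries. The deposited columns for replicates 2 and 3 of A-line HOM repeat those for WT replicates 2 and 3 in all 40174 gene symbols. These columns were not used for levels, which leaves 1 A-line HOM library (A-line HOM 1) and WT replicate 1 (WT 1). The alternative fit held them once, labelled WT, so their genotype there is uncertain. Nothing in the labels ties a library to an animal, and the spread behind each p-value may therefore be technical. Allele, line and the table in which each line was deposited divide the libraries the same way and cannot be told apart.

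RBM20 is a nuclear RNA-binding protein of striated muscle that controls alternative splicing of genes for the sarcomere and for calcium handling, above all the giant spring protein titin. A stretch rich in arginine and serine is needed for its place in the nucleus, and missense variants there are a known cause of dilated cardiomyopathy with arrhythmia. In mice as in humans, mutant protein of this kind can collect in cytoplasmic granules. A count per gene does not show splicing, so a target gene can be spliced differently with no change in the values below.

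Both alleles lie in that stretch, 2 codons apart, and the reference coding sequence is shown to place them. It was read from the GENCODE M21 transcript of Rbm20 (build GRCm38, sense strand), codons 633 to 643, and the capitals mark codons 637 and 639.

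Rbm20 codons 633 to 643: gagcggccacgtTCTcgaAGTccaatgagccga

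The capitals TCT encode the serine that is alanine in S637A, and the capitals AGT encode the serine that is glycine in S639G. The mutant codons themselves are not in the files.

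The A-line HET libraries were shallower, with 12959087 to 17448328 counts against 23714906 to 28121438 in the G-line HET libraries. Levels are given as CPM, the count of a gene relative to the library total after scaling by edgeR's TMM factors, in the order of replicates 1, 2 and 3. Cardiomyocyte markers summed to 60200 to 78640 CPM in the A-line HET and 74640 to 81830 CPM in the G-line HET libraries. In bulk tissue, fewer cells of a type and less RNA per cell cannot be told apart. Mitochondrial ribosomal RNA took 13.2% to 17.1% of counts in the A-line HET and 15.4% to 16.7% in the G-line HET libraries.

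The 3 A-line HET libraries were not alike. Over 8400 genes with a mean of at least 10 CPM, the median absolute log2 difference of A-line HET 1 was 0.110 to 0.141 to the G-line HET libraries and 0.181 to 0.184 to the other A-line HET libraries. A-line HET 2 and 3 differed from each other by 0.147 and from the G-line HET libraries by 0.170 to 0.218, and pairs of G-line HET libraries differed by 0.106 to 0.120. A-line HET 1 was thus nearer to the other line than to its own group. The library labelled A-line HOM 1 lay 0.130 to 0.140 from A-line HET 2 and 3, 0.159 from A-line HET 1 and 0.158 to 0.182 from the G-line HET libraries. The labels were kept as given. A wrong genotype label among the A-line libraries is possible and was not tested, and it would change what every A-line HET value means. Main values include A-line HET 1, and the fit without it is described after the lists.

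**Figure D1:**
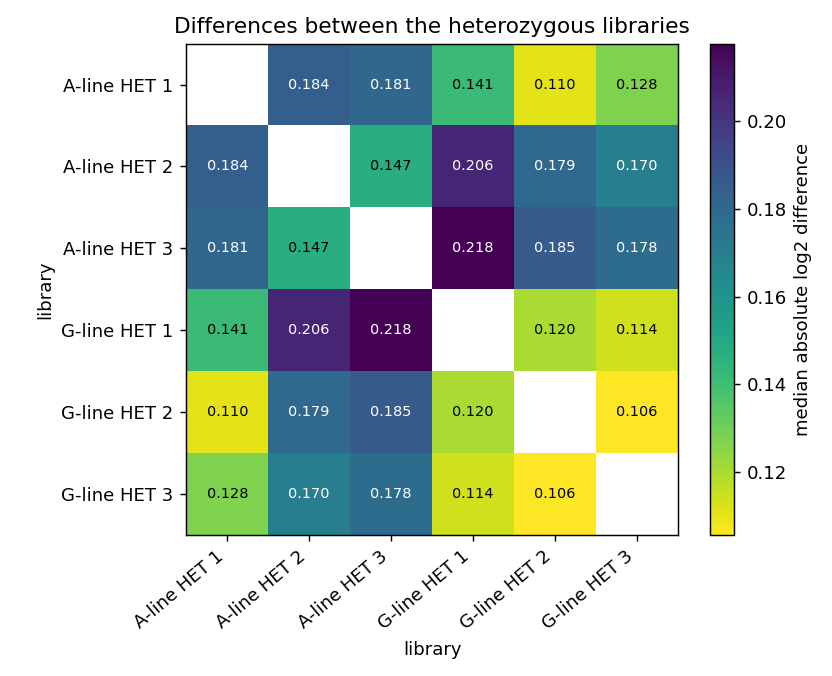
Median absolute difference in log2(CPM + 0.5) over 8400 genes between each pair of the 6 heterozygous libraries; rows and columns are libraries, and the colour and number in a cell give the difference. A-line HET 1 sits at 0.110 to 0.141 from the G-line HET libraries and at 0.181 to 0.184 from the other A-line HET libraries.

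With all 6 libraries, few genes separated the alleles. Edn3, which encodes the peptide ligand endothelin 3, was lower in A-line HET hearts. Ifi208, an interferon-inducible gene of the p200 family, and the transcripts Gm32643 and LOC118568781, which have no assigned function here, were higher. These 4 are described among the 5 genes called of 16026 tested (0.0312%; 3 higher, 0.0187%, and 2 lower, 0.0125%) by edgeR's quasi-likelihood test at an adjusted p under 0.05. Ifi208, Gm32643 and LOC118568781 fall outside the rule for named genes and are named because the count was small, after their values were seen.

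Edn3 stood at 0.158, 0.175 and 0.316 CPM in the A-line HET libraries and at 3.33, 1.77 and 3.02 CPM in the G-line HET libraries, again without overlap. The log2 fold change was -3.57 ± 0.49 (SE; adjusted p = 0.0461), or 11.9-fold lower in the A-line. WT 1 was at 1.64 CPM, the G-line HOM libraries were at 0.0620, 0.0942 and 0.332 CPM, and A-line HOM 1 had no count. All A-line libraries and the G-line homozygotes were thus low for Edn3, while the G-line HET libraries and WT 1 were high.

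Ifi208 was at 2.37, 1.22 and 1.26 CPM in the A-line HET libraries and at 0.0379, 0 and 0.0735 CPM in the G-line HET libraries. The G-line value rests on 3 counts in all against 75 in the A-line, a ratio of 39.3 with an exact 95% interval of 12.95 to 195 that covers counting error only (adjusted p = 0.0461). Both homozygous groups and WT 1 had Ifi208 counts, at 0.343 CPM in A-line HOM 1, 0.848 to 1.71 CPM in the G-line HOM libraries and 1.77 CPM in WT 1. The 3 G-line HET libraries were thus the low ones. Ifi208 has close relatives in its gene family, so how reads were divided among them is uncertain.

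LOC118568781 was at 2.77, 2.51 and 1.05 CPM in the A-line HET and at 0.0758, 0.129 and 0.110 CPM in the G-line HET libraries, a log2 difference of 4.24 ± 0.63 (SE; adjusted p = 0.0461). Gm32643 was at 48.0, 49.7 and 41.3 CPM against 26.8, 24.3 and 21.5 CPM, a log2 difference of 0.94 ± 0.12 (SE; adjusted p = 0.0461). For both transcripts every A-line HET library lay above every G-line HET library. In each of these 4 genes A-line HET 1 lay on the side of A-line HET 2 and 3. The genes were called with A-line HET 1 in the fit, which favours this, so it is no test of that library's label.

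**Figure D2:**
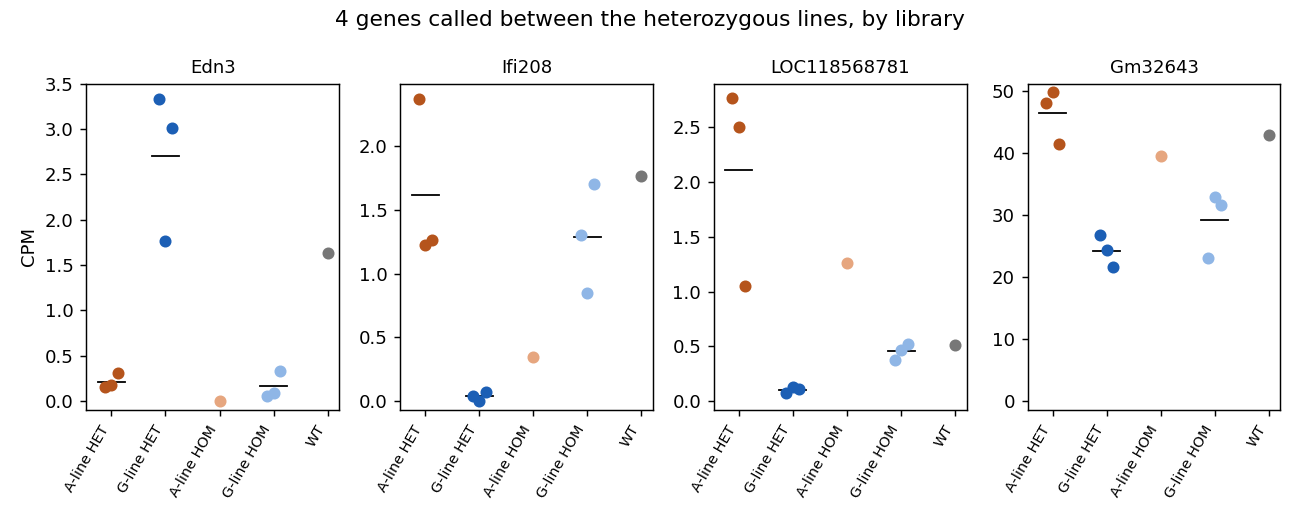
CPM (linear axis) of 4 genes called between the heterozygous lines in 11 libraries, grouped by label; points are libraries and black lines are means of groups of 3. The A-line HET points lie below the G-line HET points in the panel for Edn3 and above them in the 3 other panels.

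The calls depended on single libraries and on the test. The 4 genes described had an adjusted p of 0.0461 in edgeR, near the threshold, and a fit without 1 library has fewer residual degrees of freedom. With 1 library left out the log2 fold change ran from -3.97 to -3.39 in Edn3 and from 0.86 to 1.02 in Gm32643. Without A-line HET 1 edgeR called 695 genes, the 5 included, and it called 0 genes without A-line HET 2, without A-line HET 3, without G-line HET 1 or without G-line HET 3. Without G-line HET 2 it called 5, of which 2 were shared, Edn3 among them. DESeq2 called 150 of 16026 genes, the 5 included, with 938 genes lacking an adjusted p, and limma-voom called 0. The DESeq2 counts for the lists below are to be read beside these 150 of 16026.

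At an unadjusted p under 0.05 edgeR found 1960 genes (12.2%), 999 higher and 961 lower in the A-line, and the groups did not overlap in 2903 genes (18.1%; 1483 above, 9.25%, and 1420 below, 8.86%). The median log2 fold change of all tested genes was 0.0066. Of 16026 genes, 12121 (75.6%) had a 95% interval that lay within 2-fold in both directions, and of the 8400 genes with a mean of at least 10 CPM 8089 did (96.3%). A difference over 2-fold lay outside the interval for those genes. Smaller differences, and those of low genes, could be missed, although Gm32643 and the low genes Edn3, Ifi208 and LOC118568781 were called.

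Of 10 genes with an adjusted p under 0.10, Kcne1 and Acta1 are given here as members of the lists. Kcne1, the beta subunit of a slow potassium channel, was at 15.6, 23.7 and 17.0 CPM in the A-line HET and at 7.77, 8.23 and 5.74 CPM in the G-line HET libraries (log2 fold change 1.38 ± 0.19, adjusted p = 0.0904). Acta1, skeletal alpha-actin and a gene of the fetal program, was at 244, 222 and 225 CPM against 645, 412 and 741 CPM (-1.38 ± 0.19, adjusted p = 0.0962). Neither overlapped between groups, and neither passed edgeR's test. DESeq2 and the fit with a replicate block called both.

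Rbm20, the mutated gene, stood at 420, 379 and 434 CPM in the A-line HET and 400, 396 and 368 CPM in the G-line HET libraries (log2 fold change 0.083 ± 0.099, adjusted p = 0.748), and the ranges overlapped. Its 25 tested neighbours within 2 Mb in RefSeq GRCm38.p6 had a median log2 fold change of 0.059, and 0 were called by edgeR, DESeq2 or limma-voom. At an unadjusted p under 0.05 edgeR found 6 of these 25, all higher in the A-line, against 12.2% of all tested genes in either direction. All but Pdcd4 have predicted symbols, a class whose median over all tested genes was 0.22. Whether symbol class or place beside Rbm20 bears on this count was not tested. Gm30890 had the largest value of the 6, 7.52 ± 0.74 against 4.14 ± 1.27 CPM (mean ± SD, n = 3; log2 fold change 0.86 ± 0.23). Pdcd4, a translation inhibitor, had 0.32 ± 0.14 (adjusted p = 0.403).

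RBM20's known splicing targets held no gene called by edgeR. Of 29 targets tested 0 were called by edgeR and 1, Pdlim5, by DESeq2, and at an unadjusted p under 0.05 edgeR had 1 higher and 5 lower. Their median log2 fold change was -0.10, and the 95% interval lay within 2-fold in 29 of 29. Ttn, titin, was at 103100, 97380 and 103200 CPM against 108900, 108800 and 110800 CPM (-0.11 ± 0.13, adjusted p = 0.731). Camk2d, a calcium-dependent kinase of the myocyte, was at 179, 206 and 198 CPM against 197, 189 and 190 CPM (0.020 ± 0.092, adjusted p = 0.943). Ryr2, the calcium release channel, had a log2 fold change of -0.068 ± 0.11 (adjusted p = 0.817). Pdlim5, which anchors signalling proteins at the Z-disc, did not overlap between groups, at 626, 654 and 606 CPM against 825, 770 and 838 CPM (-0.37 ± 0.10, adjusted p = 0.260).

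Of 29 sarcomere genes edgeR called 0 and DESeq2 2 (Acta1 and Actc1), with a median log2 fold change of -0.17. Myh6, the adult cardiac myosin heavy chain, was at 24590, 19210 and 18530 CPM against 26050, 21740 and 24430 CPM (-0.21 ± 0.15, adjusted p = 0.571). Myh7, the fetal and slow heavy chain, whose reads can be confused with those of Myh6, was at 104, 103 and 87.0 CPM against 81.3, 77.0 and 93.6 CPM (0.22 ± 0.11, adjusted p = 0.434). The 2 myosin values overlapped between groups. Of 32 calcium handling genes 0 were called by edgeR or DESeq2 (unadjusted p under 0.05: 1 higher, 7 lower; median -0.11). Of 34 ion channel and gap junction genes 0 were called by edgeR and 3 by DESeq2, Kcne1 and Gja1 among them (median -0.079, and -0.19 without A-line HET 1). Gja1, connexin 43, was at 344, 383 and 338 CPM against 252, 229 and 252 CPM (0.54 ± 0.10, adjusted p = 0.165). The groups did not overlap for Gja1, which did not pass edgeR's test.

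Genes far from WT in homozygous hearts were examined next. This list of 35 genes was taken from earlier results of other libraries of the series, so it is not independent of these data. It shows how the heterozygotes stand for genes that lay far from WT in homozygotes. Some of its genes, such as Hopx and Myh7b, lay far from WT 1 in the heterozygotes too. Of its members 26 passed the filter, edgeR called 0 and DESeq2 2 (Kcne1 and Col8a1), and at an unadjusted p under 0.05 there were 5 higher and 3 lower. The median log2 fold change was 0.032, and for 11 of 26 the 95% interval lay within 2-fold. Hopx, a cardiac transcriptional cofactor, was at 9.96, 4.55 and 4.58 CPM in the A-line HET and 6.33, 6.25 and 4.04 CPM in the G-line HET libraries (log2 fold change 0.18 ± 0.33, adjusted p = 0.842), and 146 CPM in WT 1. Both heterozygous groups were thus far below WT 1 for Hopx, and the homozygous libraries were at 1.27 to 2.23 CPM. Since reads of Hopx and its antisense partner may not be separable, its value is uncertain. Myh7b, another myosin heavy chain, was at 0.316, 0.583 and 0.579 CPM against 1.14, 0.215 and 0.588 CPM, and at 70.7 CPM in WT 1. The homozygous libraries were at 0.142 to 0.343 CPM for Myh7b. Strit1, a small activator of the SERCA pump, had no count in any of the 6 libraries, where 3 counts would be 0.0614 CPM over the A-line HET and 0.0391 CPM over the G-line HET group, and it was at 6.69 CPM in WT 1.

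For other genes of this list the A-line HET libraries split. Scn4b, a sodium channel beta subunit, was at 12.1, 2.51 and 1.31 CPM in the A-line HET libraries and at 12.5, 16.4 and 14.1 CPM in the G-line HET libraries. A-line HOM 1 was at 1.94 CPM and the G-line HOM libraries were at 0.0471 to 0.569 CPM. A-line HET 1 therefore lay with the G-line HET libraries for Scn4b, and A-line HET 2 and 3 with A-line HOM 1. The same split was seen in Kctd16, an auxiliary subunit of the GABA-B receptor, at 4.74, 24.9 and 24.9 CPM against 6.89, 3.92 and 5.77 CPM, with A-line HOM 1 at 29.2 CPM. Atp2a2, the SERCA pump of the sarcoplasmic reticulum, was at 10110, 6545 and 6459 CPM against 9446, 10330 and 8977 CPM, with A-line HOM 1 at 7236 CPM. Neither was called with all 6 libraries: adjusted p = 0.391 for Kctd16 and 0.487 for Atp2a2, and 0.485 for Scn4b. The direction of Kctd16 and Atp2a2 reversed when A-line HET 1 was set alone against the G-line.

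**Figure D3:**
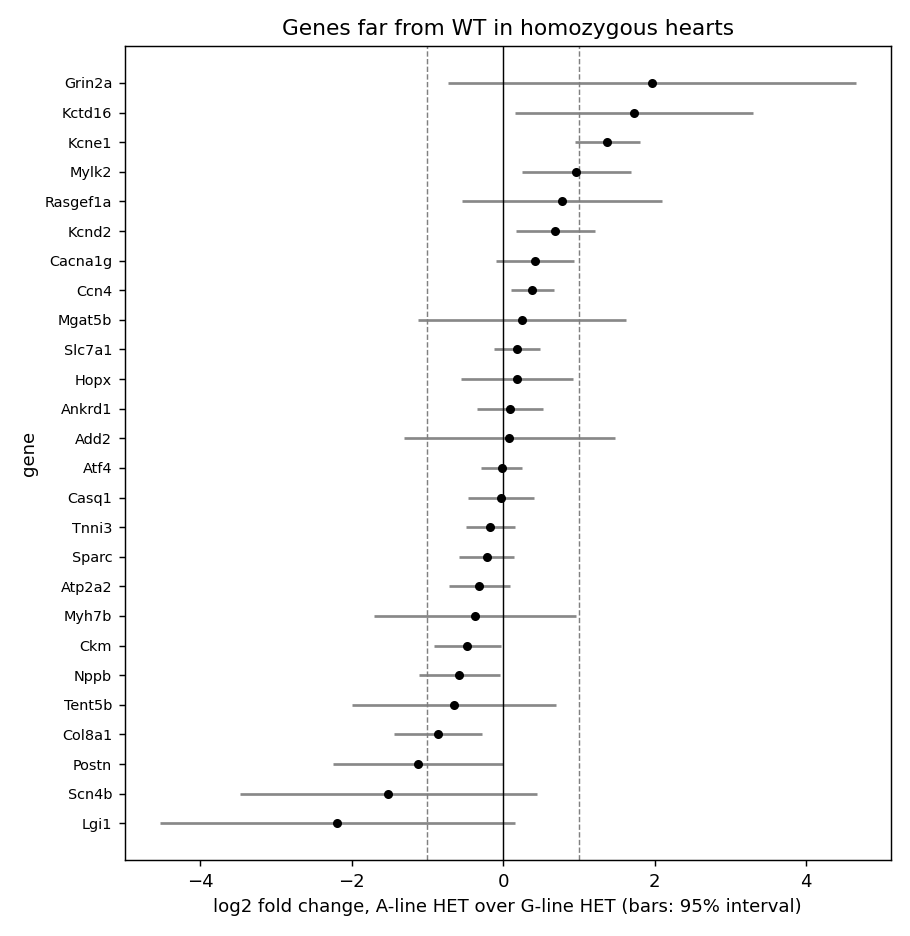
Log2 fold change, A-line HET over G-line HET, of the 26 tested genes of the list of genes far from WT in homozygous hearts; points are estimates from edgeR, bars their 95% intervals, and dashed lines mark 2-fold. Kcne1 lies at 1.38, and 11 intervals lie within the dashed lines.

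The lists of energy metabolism genes had no member called by edgeR and medians below that of all genes. Genes over 10 CPM without a predicted or clone-named symbol had a median of -0.048. Medians as low were also seen outside metabolism, such as -0.21 for heat shock genes and -0.20 for extracellular matrix genes. Of 45 fatty acid oxidation genes edgeR called 0 and DESeq2 0, with a median of -0.20, and at an unadjusted p under 0.05 there were 4 higher and 10 lower. Ppara, the receptor that drives this program, was at 94.8, 77.9 and 81.7 CPM against 105, 116 and 111 CPM (-0.39 ± 0.10, adjusted p = 0.245). Of 78 respiratory chain genes 0 were called by either tool (0 higher and 9 lower unadjusted; median -0.14), and of 31 glycolysis and glucose genes 0 by edgeR and 1, Slc16a1, by DESeq2 (0 higher and 9 lower; median -0.20). Slc16a1, a lactate transporter, was at 321, 279 and 249 CPM against 396, 376 and 401 CPM (-0.47 ± 0.11, adjusted p = 0.243). Ppara and Slc16a1, named as lowest-p members of their lists, did not overlap between the groups, and neither did 18.1% of all tested genes.

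The lowest median of the 27 lists of gene groups was that of 33 cell cycle genes, at -0.48, with 0 called by edgeR, 2 by DESeq2 and 0 higher and 8 lower unadjusted. Mki67, a marker of dividing cells, was at 9.17, 5.89 and 6.31 CPM against 19.9, 11.1 and 15.3 CPM (-1.13 ± 0.24, adjusted p = 0.230), and Top2a, a topoisomerase of dividing cells, at 4.19, 3.50 and 3.16 CPM against 10.1, 5.64 and 6.07 CPM (-1.02 ± 0.25, adjusted p = 0.243). Of 30 glucocorticoid and feeding-responsive genes edgeR called 0 and DESeq2 4 (median -0.33). Mt2, a metallothionein, was at 0.948, 0.758 and 1.47 CPM against 3.45, 2.54 and 3.57 CPM (-1.57 ± 0.31, adjusted p = 0.190). Of 22 heat shock genes edgeR called 0 and DESeq2 2 (median -0.21), while without A-line HET 1 edgeR called 4 lower (median -0.32). Over all genes the fit without A-line HET 1 called 488 of 16896 lower (2.89%). Hspb6, a small heat shock protein of muscle, was at 127, 139 and 134 CPM against 245, 180 and 209 CPM (-0.66 ± 0.12, adjusted p = 0.165). In each of these 4 genes the groups did not overlap, and neither did they in 18.1% of all tested genes. The 4 were named as lowest-p members of their lists, which favours a lack of overlap.

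Of 60 extracellular matrix genes 0 were called by edgeR and 2 by DESeq2 (median -0.20, and -0.072 without A-line HET 1), and of 28 TGF-beta signalling genes 0 by either (median 0.050, and 0.094 without A-line HET 1). Postn, a matrix protein of activated fibroblasts, was at 70.7, 75.7 and 103 CPM against 270, 82.1 and 192 CPM (-1.12 ± 0.45, adjusted p = 0.410), and G-line HET 2 lay within the A-line range. Nppb, a wall-stress natriuretic peptide, was at 175, 248 and 262 CPM against 389, 235 and 400 CPM (-0.58 ± 0.23, adjusted p = 0.389), and Nppa, its atrial relative, at 939, 2584 and 3484 CPM against 2343, 959 and 2987 CPM (0.16 ± 0.63, adjusted p = 0.933). Both peptides overlapped between groups. Interferon response genes (45 tested, median 0.062), unfolded protein response genes (25, -0.10), integrated stress response genes (35, 0.095), cytosolic ribosomal protein genes (45, 0.067) and complement, cytokine and inflammation genes (23, -0.012) had 0 called by edgeR, and DESeq2 called 1, Ddit4, among them. Without A-line HET 1 edgeR called 4 of 35 integrated stress response genes, all higher (Aldh1l2, Trib3, Asns and Atf5), as well as Rpl3 of the ribosomal list and Tlr4 of the inflammation list, both higher. Over all genes that fit, which is no test of the alleles, called 207 of 16896 higher (1.23%). The medians of the interferon list and the inflammation list in that fit were -0.0086 and 0.11.

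**Figure D4:**
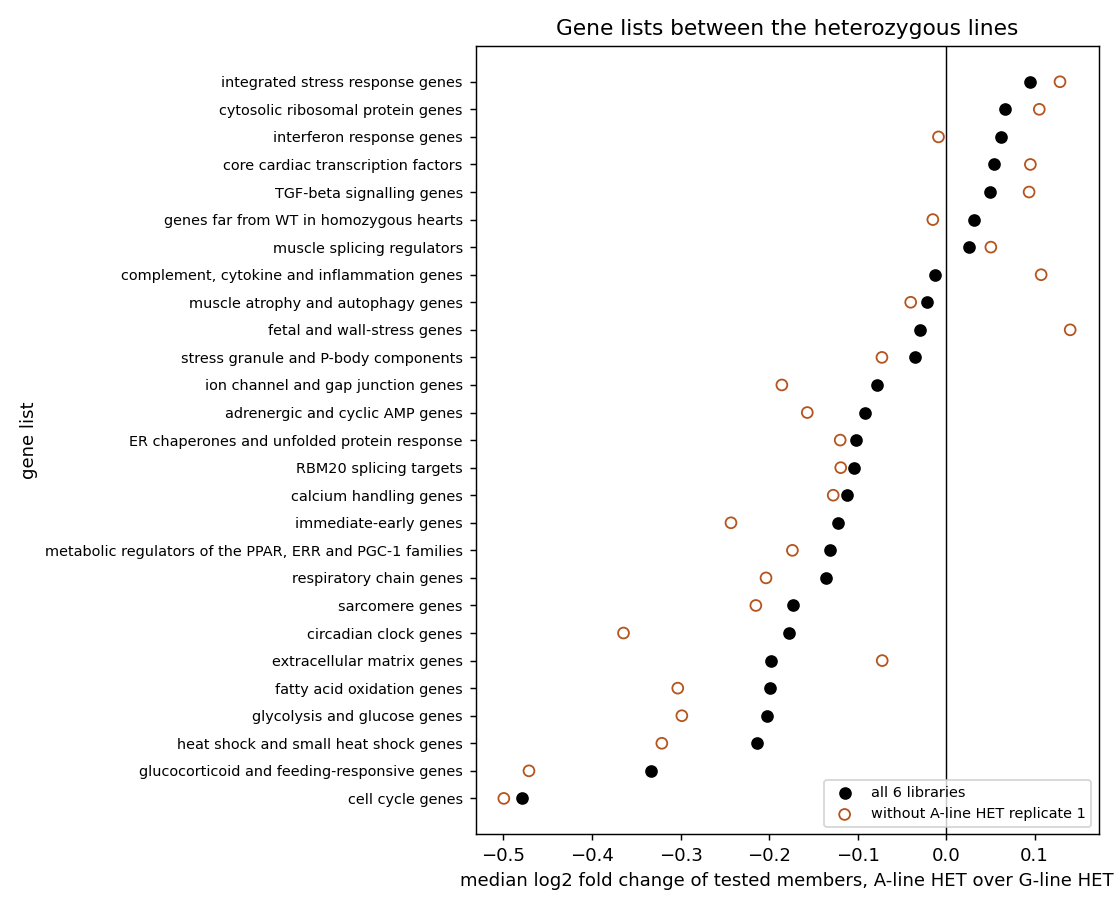
Median log2 fold change of the tested members of 27 gene lists, A-line HET over G-line HET, from the fit to all 6 libraries (filled) and from the fit without A-line HET 1 (open). Cell cycle genes lie lowest with all 6 libraries, at -0.48, and fatty acid oxidation genes move from -0.20 to -0.30 without A-line HET 1.

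Markers of other cell types gave 0 calls in edgeR over all 18 marker lists and 6 in DESeq2, and A-line HET 3 stood out in the atrial and mesothelial lists. Atrial myosin light chain Myl7 was at 237 CPM in A-line HET 3 and at 0 to 0.341 CPM in the other 5 libraries, and Sln, the atrial SERCA inhibitor sarcolipin, was at 56.9 CPM against 0 to 0.492 CPM. Summed atrial markers ran from 1048 to 4203 CPM in the A-line HET and from 1070 to 3110 CPM in the G-line HET libraries, of which Nppa is a large share, and mesothelial markers summed to 21.4 CPM in A-line HET 3 against 1.36 to 2.80 CPM in the other 5. Myl7 and Sln were thus high in this library alone, and Fgf12, an atrial-listed gene, was at 8.99 CPM there against 0.172 to 0.632 CPM elsewhere. Their part in the counts of genes called was not tested. Edn3 was named under a rule that requires groups without overlap. Its level below the G-line HET libraries in A-line HET 1 and 2, where Myl7 was at 0.237 and 0 CPM, is therefore no test of this.

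A-line HET 2 differed in the circadian clock. It held the highest or lowest value of the 6 libraries in 22 of 24 clock genes (91.7%), against 40.5% of all tested genes. Arntl, the activating clock factor also called Bmal1, was at 29.03 CPM there against 1.16 to 2.29 CPM in the other 5, and Per2, a repressor of the clock, at 2.97 CPM against 36.6 to 41.5 CPM. Dbp, an output factor of the clock, was at 5.71 CPM against 18.5 to 26.2 CPM. As a list, clock genes had 0 called by edgeR and 1, Nr1d1, by DESeq2 (median -0.18, and -0.36 without A-line HET 1). Nr1d1, a repressor of Arntl, was at 43.2, 39.6 and 51.1 CPM against 32.05, 28.6 and 26.8 CPM (0.62 ± 0.12, adjusted p = 0.185), and A-line HET 2 was the lowest of its group and above every G-line HET library. Whether clock phase differs in the other genes of A-line HET 2 was not tested.

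**Figure D5:**
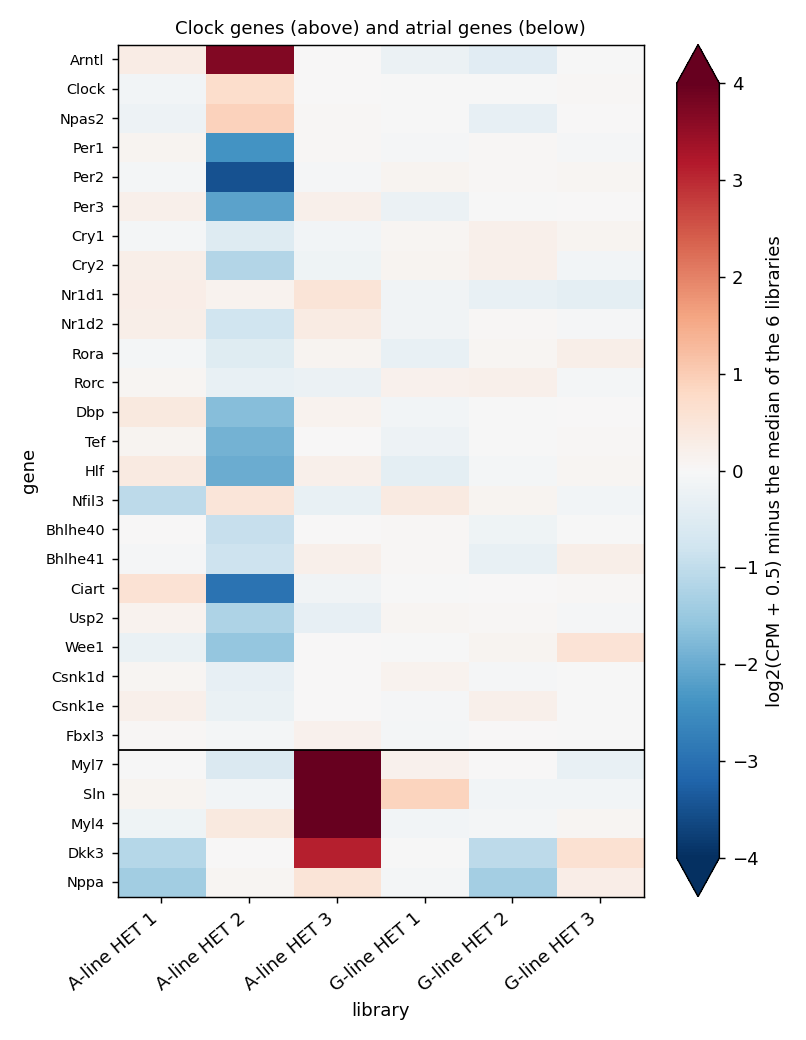
log2(CPM + 0.5) minus the median of the 6 libraries for 24 clock genes (above the line) and 5 atrial genes (below it) in each heterozygous library; the colour scale ends at 4 in each direction. A-line HET 2 stands out in the clock genes, such as Arntl at 29.03 CPM, and A-line HET 3 in Myl7 at 237 CPM and Sln at 56.9 CPM.

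A-line HET 1 was also left out, and the fit of A-line HET 2 and 3 against the 3 G-line HET libraries called 695 of 16896 genes (4.11%), 207 higher (1.23%) and 488 lower (2.89%). The library left out is the one that lay nearest the other group, so this fit describes 2 libraries against 3, and its counts are not a test of the alleles. In this fit A-line HET 2 is the library with the shifted clock and A-line HET 3 the one with atrial transcripts. Members named here were chosen after their values were seen.

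Of 45 fatty acid oxidation genes 18 were lower and 1 higher in this fit (median -0.30). Decr1, a mitochondrial reductase for unsaturated fatty acids, was at 194 and 186 CPM in A-line HET 2 and 3, at 292, 310 and 284 CPM in the G-line HET libraries and at 296 CPM in A-line HET 1 (log2 fold change -0.64 ± 0.08, adjusted p = 0.00630). Acsl6, an acyl-CoA synthetase, was at 4.55 and 4.10 CPM against 12.2, 11.5 and 12.9 CPM, with A-line HET 1 at 15.3 CPM (-1.50 ± 0.16, adjusted p = 0.00311). A-line HET 1 lay with the G-line HET libraries in both. Acsl3, another acyl-CoA synthetase, was the 1 member that was higher. The summed level of the list was 17910, 14070 and 13450 CPM in the A-line HET and 17870, 18730 and 17610 CPM in the G-line HET libraries, and 14210 CPM in A-line HOM 1.

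Of 31 glycolysis and glucose genes 10 were lower and 0 higher without A-line HET 1, and of 78 respiratory chain genes 10 were lower and 0 higher. Slc2a4, the insulin-responsive glucose transporter, was at 207 and 187 CPM against 288, 298 and 287 CPM, with A-line HET 1 at 331 CPM (-0.57 ± 0.09, adjusted p = 0.00987). Uqcrc1, a core subunit of complex III, was at 639 and 612 CPM against 999, 859 and 889 CPM, with A-line HET 1 at 972 CPM (-0.56 ± 0.09, adjusted p = 0.0131). Of 16 cardiomyocyte markers 5 were lower and 0 higher, with Ckm, the muscle creatine kinase, at 418 and 342 CPM against 664, 605 and 653 CPM (-0.76 ± 0.10, adjusted p = 0.00726). A lower share of cardiomyocyte RNA and a lower level per cell cannot be told apart.

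Ion channel genes had 3 higher and 7 lower members of 34 without A-line HET 1. Scn4b had a log2 fold change of -2.93 ± 0.26 (adjusted p = 0.00126) and Kcne1 of 1.49 ± 0.20 (adjusted p = 0.00664). Cacna2d1, a calcium channel subunit, was at 220 and 214 CPM against 378, 374 and 395 CPM, with A-line HET 1 at 430 CPM (-0.83 ± 0.08, adjusted p = 0.00181). Of 33 calcium handling genes 5 were lower, Atp2a2 among them (-0.57 ± 0.09, adjusted p = 0.0103), and of 28 adrenergic and cyclic AMP genes 2 were higher and 6 lower. Of 28 tested genes of the homozygous list 3 were higher (Kctd16, Kcne1 and Chodl) and 4 lower (Scn4b, Lgi1, Ckm and Atp2a2).

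Among single genes, Lrat, which esterifies retinol, was at 0.641 and 0.684 CPM in A-line HET 2 and 3, at 16.1, 16.2 and 17.8 CPM in the G-line HET libraries, at 20.6 CPM in A-line HET 1 and at 1.37 CPM in A-line HOM 1 (-4.65 ± 0.24, adjusted p = 1.18e-05). Inhba, a subunit of activin and the 1 called gene of the TGF-beta list in this fit, was at 17.4 and 24.2 CPM against 4.47, 3.27 and 4.08 CPM, at 3.32 CPM in A-line HET 1 and at 19.3 CPM in A-line HOM 1 (2.39 ± 0.19, adjusted p = 0.000555). In both of these genes A-line HET 1 lay with the G-line HET libraries and A-line HET 2 and 3 with A-line HOM 1. Over all 16026 genes A-line HET 1 was inside the G-line HET range in 43.3%, A-line HET 2 in 34.0% and A-line HET 3 in 33.4%. Over the 26 tested genes of the homozygous list these shares were 38.5%, 26.9% and 42.3%, so there A-line HET 3 had the highest share. Set alone against the G-line HET libraries, A-line HET 1 gave 1 call, Fkbp5, a chaperone induced by glucocorticoids (log2 fold change -1.32 ± 0.13, adjusted p = 0.0326), with the spread taken from the G-line HET libraries alone.

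The direction of the heterozygous differences was set beside the homozygous libraries. Of all tested genes A-line HOM 1 lay above the G-line HOM range in 29.4% and below it in 28.2%. Among genes whose A-line HET libraries all lay above the G-line HET libraries these shares were 30.5% and 28.7%, and among genes with the A-line HET libraries below, 28.7% and 26.6%. Of the called genes described, LOC118568781 and Gm32643 were above the G-line HOM range in A-line HOM 1, and Ifi208 was below it. For Edn3, with no count in A-line HOM 1, the position could not be resolved.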

How the data were processed

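Total RNA of left ventricle was extracted with TRIzol, DNase-treated and made into TruSeq total RNA Gold libraries, per the labels' protocols. The tools named per the submitters' processing notes are bcl2fastq 2.20.0.422, Trimmomatic 0.39 and STAR 2.7.4a, with mm39 (GRCm39) as the build. Values are raw counts for each gene symbol as the authors deposited them, taken unchanged; for the counting program, annotation and strand setting the entry is not given in the sources used here.

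Groups came from the sample titles. The 6 heterozygous libraries were fitted alone with edgeR 4.0.16 (R 4.3.3): TMM scaling, its default expression filter (16026 of 40174 symbols kept), robust quasi-likelihood F test, two-sided, Benjamini-Hochberg over all genes tested, threshold 0.05, 4 residual degrees of freedom, and a common biological variation of 15.6%. Log2 fold changes are A-line over G-line ± SE, and intervals are 95%. Levels of the other libraries were put on the same scale. The script was tested on simulated data. DESeq2 1.42.0, limma-voom 3.58.1 (added after seeing the data), other filters and scalings, a replicate block, thinning and leaving out each library were alternatives.

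The members and the 50 gene lists were chosen with earlier results of these data known. Named genes were those called, with a mean of at least 1 CPM, no overlap between groups and no predicted symbol; Rbm20; up to 4 called or otherwise up to 2 lowest-p members per list; and all members of the homozygous list. Other genes were chosen after their values were seen. The reference given is GRCm38, another build than the authors', so it served for names, neighbours and the Rbm20 codons, and no coordinates are printed. Some results, 1 called gene among them, are not reported here.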

Additional observations from a re-analysis of the deposited data

How the results depend on the processing

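The count of genes called moved with most alternatives. Against 5 in edgeR, DESeq2 gave 150 (938 genes without an adjusted p), keeping every gene with at least 1 count 211, the replicate block 22, limma-voom 0 (2119 at an unadjusted p under 0.05) and A-line HET 1 alone against the G-line 1. Thinning the G-line libraries to the A-line depth gave 3 (1812), and 0 to 6 over 10 random draws, which were added after seeing the data. Leaving out 1 library gave 0 to 695. RLE size factors, a filter of 1 CPM, leaving out ribosomal and sex-linked genes and a fit of all 13 distinct libraries gave 5 each, of which 2 were shared in the last. That last fit held the columns shared by A-line HOM and WT once, as WT replicates 2 and 3. Called genes of the lists, 0 in edgeR, were 24 in DESeq2, 31 with at least 1 count, 1 in the fit of 13 libraries, 5 with the replicate block, 1 for A-line HET 1 alone and 0 to 104 when 1 library was left out. The cause was not tested. The 5 called genes kept their direction under every alternative.

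Whether the replicate numbers pair the samples is not known. The deviations of same-numbered libraries correlated at 0.045, -0.052 and 0.20 across 16026 genes, and not every library correlated best with its own number. These values cannot decide it, because the deviations within a group of 3 are tied to each other.

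Of the 120 named genes tested, 21 changed direction under at least 1 alternative, and none of these was called there. With A-line HET 1 alone against the G-line the reversed log2 fold changes were Inhba -0.25, Rpl3 -0.12, Cnn1 -0.19, Fabp4 0.038, mt-Rnr2 0.069, H1f4 -0.084, Ankrd1 -0.23, Kctd16 -0.22, Grin2a -1.25, Rasgef1a -0.84, Mgat5b -1.18, Atp2a2 0.078, Tnni3 0.082, Ide 0.39 and Crb1 0.28, and with thinning Add2 -0.11. With 1 library left out, values ran from -0.31 to 2.33 in Cnn1, -0.00976 to 0.16 in H1f4, -0.76 to 0.30 in Myh7b, -0.28 to 0.38 in Hopx, -0.28 to 0.11 in Casq1, -0.0534 to 0.30 in Ankrd1, -0.40 to 0.95 in Mgat5b, -0.33 to 0.85 in Add2, -0.093 to 0.11 in Atf4, -0.25 to 0.079 in Nnt, -0.47 to 0.14 in Ide and -0.47 to 0.079 in Crb1. Depth limits low genes most: 3 counts make 0.0614 CPM over the A-line HET and 0.0391 CPM over the G-line HET group.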

Other observations

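The 2865 tested symbols that are predicted or clone-named had a median log2 fold change of 0.22, with 358 higher and 66 lower at an unadjusted p under 0.05 in edgeR, against a median of -0.016 and 641 higher and 895 lower for the 13161 other symbols. By library, their median deviation in log2(CPM + 0.5) from the mean of the 6 heterozygous libraries was lowest in G-line HET 1, at -0.18, and 0.023 in A-line HET 1, 0.12 in A-line HET 2, 0.10 in A-line HET 3, 0.013 in G-line HET 2 and -0.045 in G-line HET 3. Other symbols with low levels had positive medians too, 0.14 under 1 CPM and 0.12 from 1 to 3 CPM, against 0.25 and 0.24 for predicted symbols in the same ranges. Over 5 bins of all tested genes by genomic span, the bin with the longest genes had 257 higher and 196 lower at an unadjusted p under 0.05, and each of the other 4 bins had more lower than higher.

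Of 15 T and B cell markers 3 were tested and edgeR called 0, with 2 positive log2 fold changes and a median of 1.67. Those 2 were a pair of B cell genes, low throughout. The groups did not overlap in either, nor in 18.1% of all tested genes. Cd79b, part of the B cell receptor, was at 1.19, 1.11 and 2.16 CPM in the A-line HET and 0.606, 0.388 and 0.404 CPM in the G-line HET libraries (log2 fold change 1.67 ± 0.42, adjusted p = 0.243), and Cd79a, its partner, was at 0.553, 0.816 and 0.736 CPM against 0.0758, 0.301 and 0.0735 CPM (2.25 ± 0.64, adjusted p = 0.262). Vwf, the endothelial clotting factor, was at 108, 121 and 125 CPM against 91.1, 71.2 and 74.8 CPM (0.58 ± 0.11, adjusted p = 0.190), and Rgcc, an endothelial cell cycle regulator, at 18.5, 12.4 and 16.4 CPM against 25.1, 38.2 and 30.6 CPM (-0.99 ± 0.18, adjusted p = 0.185). DESeq2 called Vwf and Rgcc. The erythroid list, whose genes come from blood left in the tissue, had 7 tested members, 0 called and a median of -0.33.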
